A study of Mus musculus with 45 samples.

Results

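The Klf4 and Klf5 loci are the stretches of chromosomes 4 and 14 within 90 kb of the 5′ end of each gene, and their members are the ATACseq peaks whose summits lie there. The distance was measured from the summit to the gene-level 5′ end in GENCODE on mm10, so no measured level entered the choice. This gave 59 of the 184964 deposited peaks, 23 at Klf4 and 36 at Klf5. A peak is named here by its gene and the distance of its summit, so that Klf4 +68.1 kb lies downstream in the direction of transcription and Klf5 -22.7 kb lies upstream.

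ATACseq counts the fragments that the Tn5 transposase releases from open DNA, and the fragments in an open chromatin region (OCR) measure its accessibility. All cells were mouse embryonic stem cells grown without serum, with LIF, the MEK inhibitor PD0325901 and the GSK3 inhibitor CHIR99021, and each line carried an FKBP tag on 1 factor, which dTAG-13 sends to degradation. SOX2-FKBP and NANOG-FKBP cells are derived from E14 and OCT4-FKBP cells from V6.5, so a difference between OCT4-FKBP and the other lines is also one between parental cells. Cells received 500 nM dTAG-13, and the untreated (NT) cells received DMSO instead, with all cells of a course harvested at its end. SOX2-FKBP was sampled in NT and after 0.5, 1, 2, 6 and 24 h, and OCT4-FKBP in NT and after 2, 6 and 24 h, with 2 libraries each. NANOG-FKBP had 2 NT libraries and 3 at each of 2, 6 and 24 h. The study's methods mention duplicates and a further independent clone for SOX2, and the labels do not say whether a SOX2-FKBP library here comes from that clone. Nor do they say that replicates were separate cultures, so the p-values measure the spread between these libraries, which may be technical.

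KLF4 and KLF5 are zinc finger transcription factors that bind GC-rich sites and, with KLF2, help to hold embryonic stem cells in the naive pluripotent state. LIF acts through STAT3 to raise Klf4, and KLF4 is among the factors used to reprogram somatic cells. SOX2 and OCT4 often bind next to each other, on a composite site made of a SOX element and a POU element, and NANOG, a homeodomain factor, binds many of the same enhancers. Such enhancers can lie far from the promoter, and a cluster of them lies downstream of Klf4.

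The sequences that the results return to are shown here, read from the mm10 reference. The SOX element was searched as CATTGT or CTTTGT, the POU octamer as ATGCAAAT and 3 variants of it, the composite as a SOX element followed after 1 base by ATGNNAA, and the STAT site as TTCCNGGAA, each on both strands. A SOX element inside a composite was counted as both. A match describes the letters and does not show that a factor binds. The first window covers the summit of Klf4 +12.7 kb (chr4:55519647-55519946, plus strand), the member that fell most after 2 h of OCT4 depletion, with the octamer and SOX elements in capitals:
Klf4 +12.7 kb: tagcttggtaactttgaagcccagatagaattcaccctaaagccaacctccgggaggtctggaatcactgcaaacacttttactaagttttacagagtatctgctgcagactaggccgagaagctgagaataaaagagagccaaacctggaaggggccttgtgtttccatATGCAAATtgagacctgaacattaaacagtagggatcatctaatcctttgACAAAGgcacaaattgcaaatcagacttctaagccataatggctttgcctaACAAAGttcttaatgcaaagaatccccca
The next windows hold the only composites at both loci, in capitals, at Klf5 -19.6 kb (chr14:99278621-99278740, plus strand), Klf5 +41.4 kb (chr14:99339785-99339904, minus strand) and Klf5 +56.2 kb (chr14:99354157-99354276, minus strand):
Klf5 -19.6 kb: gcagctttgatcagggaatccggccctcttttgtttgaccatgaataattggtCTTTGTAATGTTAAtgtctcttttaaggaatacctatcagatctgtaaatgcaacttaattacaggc
Klf5 +41.4 kb: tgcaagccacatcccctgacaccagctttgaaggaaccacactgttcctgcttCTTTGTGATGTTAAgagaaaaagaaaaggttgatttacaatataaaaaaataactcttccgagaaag
Klf5 +56.2 kb: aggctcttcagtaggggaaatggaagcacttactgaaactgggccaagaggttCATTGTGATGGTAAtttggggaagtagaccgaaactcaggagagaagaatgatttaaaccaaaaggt
The last window covers the summit of Klf5 -22.7 kb (chr14:99275808-99276107, plus strand), which changed most after NANOG depletion, with its SOX element in capitals:
Klf5 -22.7 kb: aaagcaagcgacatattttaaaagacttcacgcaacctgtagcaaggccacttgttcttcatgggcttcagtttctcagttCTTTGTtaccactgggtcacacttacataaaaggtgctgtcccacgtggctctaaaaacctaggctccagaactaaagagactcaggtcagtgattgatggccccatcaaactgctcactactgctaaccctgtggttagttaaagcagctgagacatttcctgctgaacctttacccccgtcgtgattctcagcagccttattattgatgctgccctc

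The octamer of Klf4 +12.7 kb lay 24 bp from the summit, and the 2 SOX elements of the window lay 73 and 124 bp from it. Within 150 bp of the summit, an octamer was found in 2 of the 23 Klf4 members and 0 of the 36 Klf5 members, against 6.48% of 184798 peaks with sequence. The 3 composites lay farther out, at -454, -216 and -695 bp from their summits in genome coordinates. Within 150 bp of the summit a composite was in 0 of 36 Klf5 members and 0 of 23 Klf4 members, against 0.16% of all peaks. Counted over whole peaks composites were in 3 of 36 Klf5 members and 0 of 23 Klf4 members, against 0.267% of all peaks. The 3 peaks that hold them are 1396, 2178 and 2164 bp wide, and the median width of all peaks is 636 bp. The whole-peak shares are therefore not comparable. Klf5 +56.2 kb also held the only STAT match, 17 bp from its summit, where 1.28% of all peaks have one within 150 bp. The 18 members lost after SOX2 or OCT4 depletion had a median width of 1179 bp and the other 41 a median of 710 bp, so matches in whole peaks are not comparable between them. In the 300 bp around the summit, 7 of the 18 and 10 of the 41 held a SOX element, against 34.9% of all peaks.

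Accessible sites were spread differently at the loci. At Klf4, 19 members lay downstream, 1 at the promoter and 3 upstream, and 16 of the 23 summits were intergenic, 6 in introns of the non-coding genes Gm12506, Gm12511 and Gm12510, and 1 in a coding exon of Klf4. At Klf5, 19 lay downstream, 1 at the promoter and 16 upstream, of which 7 were inside Pibf1. Levels are given in CPM, the counts of a peak scaled to library size by TMM. Peaks differ in width, so NT levels are compared per kb of peak, averaged over the 3 lines. At Klf4 the order was Klf4 +54.4 kb (30.5 CPM per kb), Klf4 +56.9 kb (26.5), Klf4 +17.5 kb (21.8), Klf4 +51.9 kb (20.8), the promoter peak Klf4 -0.4 kb (16.8) and Klf4 +68.1 kb (16.6). At Klf5 the promoter peak Klf5 -0.1 kb led (28.8 CPM per kb), followed by Klf5 +26.1 kb (27.6), Klf5 +2.9 kb (22.6), Klf5 +41.4 kb (16.6), Klf5 +22.3 kb (13.6) and Klf5 +56.2 kb (12.9). The lines spread around these means, so neighbours in the order are not told apart here.

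**Figure D1:**
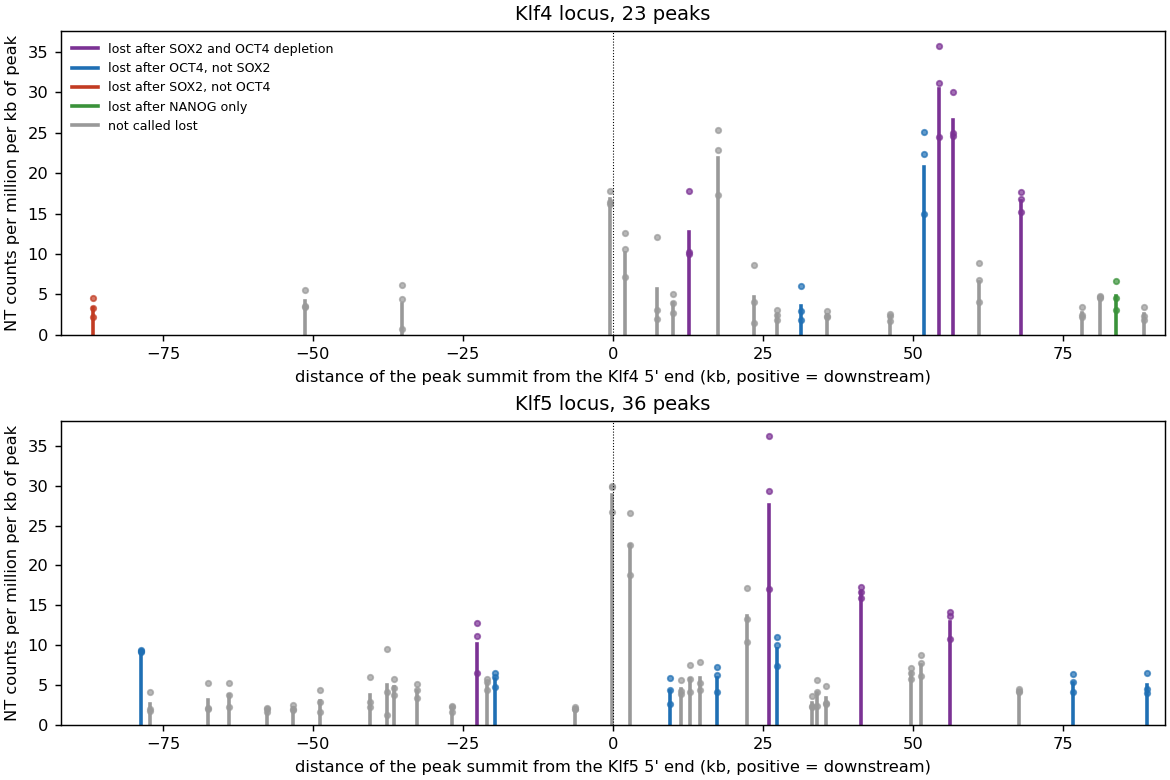
NT level of the 59 members in CPM per kb of peak against the distance of the summit from the 5′ end, with a bar for the mean of the 3 lines, a point for each line and colour for the lines in which a member was called lost at any time. The tall bars downstream of Klf4 reach 30.5 CPM per kb, and at Klf5 the promoter bar is the tallest at 28.8 CPM per kb.

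Libraries held between 1817191 and 17575631 counts in peaks. The second replicates of treated NANOG-FKBP cells were the shallowest, and mitochondrial counts reached 17.6% there. Chromosome 4 took 6.45% to 7.16% of the other counts and chromosome 14 took 3.05% to 3.59%, and levels of different lines were not tested against each other. NT libraries had 19.2 to 39.2 CPM at the Nanog promoter and 29.4 to 38.1 CPM at the Sox2 promoter. At the promoter of Esrrb, another stem cell marker, they had 0.997 to 2.16 CPM. A promoter peak here has its summit within 500 bp of the gene-level 5′ end, so other start sites of these genes were not read. By that rule the stem cell markers Pou5f1 and Tdgf1 had no promoter peak. At the Col1a2 promoter, a fibroblast marker, NT libraries had 0.289 to 1.3 CPM. The promoters of Thy1 and Twist2, also fibroblast markers, had 7.03 to 16.7 and 6.21 to 16.7 CPM. The Gata6 promoter, an endoderm marker, had 15.5 to 32.6 CPM, so levels at markers of different cell types overlapped. Peaks with enough counts were tested with edgeR's quasi-likelihood test, and a change was called at an adjusted p below 0.05 over all peaks tested. Lost means lower than NT and gained means higher, the times of a line share their NT libraries, and fewer cells with a site open cannot be told apart from less accessibility per cell. Of the 59 members, 57 were tested in the fit of the 3 lines (27 libraries), without Klf4 +35.7 kb and Klf4 +78.3 kb, and 58 in the fit of SOX2-FKBP alone (12 libraries), which gave the 0.5 and 1 h values.

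SOX2 depletion closed a small number of members early, and the count was highest at 24 h. At 0.5 h, 4 members were lost (3 at Klf4, 1 at Klf5), against 3.14% of all peaks tested. The count was 6 at 1 h (background 5.46%), 3 at 2 h (5.06%), 5 at 6 h (6.83%) and 9 at 24 h (10.9%). Read as shares of the members tested, the 9 of 57 at 24 h and the 6 of 58 at 1 h were above the background, and the 3 of 57 at 2 h was close to it. The median width was 740 bp at Klf4 and 885 bp at Klf5, against 636 bp for all peaks. No background given here was matched for width or level, so such shares are only described. The 2, 6 and 24 h counts were higher in a fit of SOX2-FKBP libraries alone, at 6, 8 and 16 losses, and the same with the replicate block. The backgrounds given here are not those of these fits, so these counts are not set against all peaks. Same-numbered SOX2-FKBP libraries were not taken as paired, so here and below their replicate block rests on no known pairing. The median log2 fold change of the members was -0.09, -0.11, -0.04, -0.04 and -0.34 in order of time. That of all peaks tested was -0.008, 0.0007, 0.07, 0.08 and 0.06. The 0.5 and 1 h medians come from another fit than the later ones, so the values are not read as 1 course. The only gain was Klf4 +2.0 kb at 24 h, when 4.87% of all peaks were gained. No member was gained at 0.5, 1, 2 or 6 h by edgeR, where 0, 0, 1 and 1 members were higher at an unadjusted p below 0.05, and the backgrounds were 0.158%, 0.889%, 0.574% and 1.18%. The early counts rested on single libraries: 0.5 h had 2 losses without NT replicate 1, 1 without NT replicate 2 and 0 without 0.5 h replicate 1, 2 h had 1 without NT replicate 1 or 2 h replicate 1 and 5 without OCT4-FKBP 24 h replicate 1, and 6 h had 3 without 6 h replicate 2.

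After OCT4 depletion losses were called at both loci. At 2 h, 9 members were lost, 2 of the 21 tested at Klf4 and 7 of the 36 tested at Klf5 (background 5.10%). At 6 h there were 10, 3 at Klf4 and 7 at Klf5 (7.97%), and at 24 h 16, 6 of 21 at Klf4 and 10 of 36 at Klf5 (12.7%). The median log2 fold change of the 57 members tested was -0.17, -0.21 and -0.57 (all peaks 0.02, 0.01 and -0.01). At 24 h 3 members were gained, Klf4 -0.4 kb, Klf4 +2.0 kb and Klf5 -0.1 kb, a smaller share than the 10.8% of all peaks. In a fit of OCT4-FKBP libraries alone none of the 3 gains was called, and the losses of that fit are not given here. In the fit of the 3 lines none was gained at 2 or 6 h (backgrounds 1.92% and 4.12%). There, 2 and 3 were higher at an unadjusted p below 0.05. In OCT4-FKBP cells libraries with the same replicate number deviated together, and a fit with that number as a replicate block gave gains of 1 at 2 h and 3 at 6 h, and losses of 11, 14 and 19. The backgrounds above are not those of the block fit, so its counts are not set against all peaks. The 2 h count was 5 without NT replicate 2 and 4 without 2 h replicate 1. The gains at 24 h were 0 without NT replicate 2 and 1 without NT replicate 1 or 24 h replicate 1, and 6 h had 1 gain without either of its replicates.

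NANOG depletion changed few members. Only Klf5 -22.7 kb was lost at 2 h and at 6 h (backgrounds 0.938% and 1.08%), and at 24 h it was joined by Klf4 -86.6 kb and Klf4 +83.9 kb (2.25%). The 24 h count was 1 without NT replicate 1 or 24 h replicate 3, and the 6 h count was 2 when any 1 of 7 libraries was left out, among them NT replicate 2 and 6 h replicate 1. Without the 3 shallow second replicates, 4 of the 5 NANOG losses were kept. None was gained by edgeR at 2, 6 or 24 h, where 0, 2 and 1 were higher at an unadjusted p below 0.05, and the backgrounds were 0.0162%, 0.0367% and 0.288%. Over all times and lines, 19 members were lost at least at 1 time, 3 were gained and 37 were never called. Of the 19, 8 were lost after both SOX2 and OCT4 depletion, 9 after OCT4 and not SOX2, 1, Klf4 -86.6 kb, after SOX2 and not OCT4, and 1, Klf4 +83.9 kb, after NANOG alone. These counts rest on separate calls, and the tests of the differences between lines are given further on. The shares of all peaks with the same patterns of calls were not counted. The split is therefore not read as a trait of these loci.

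**Figure D2:**
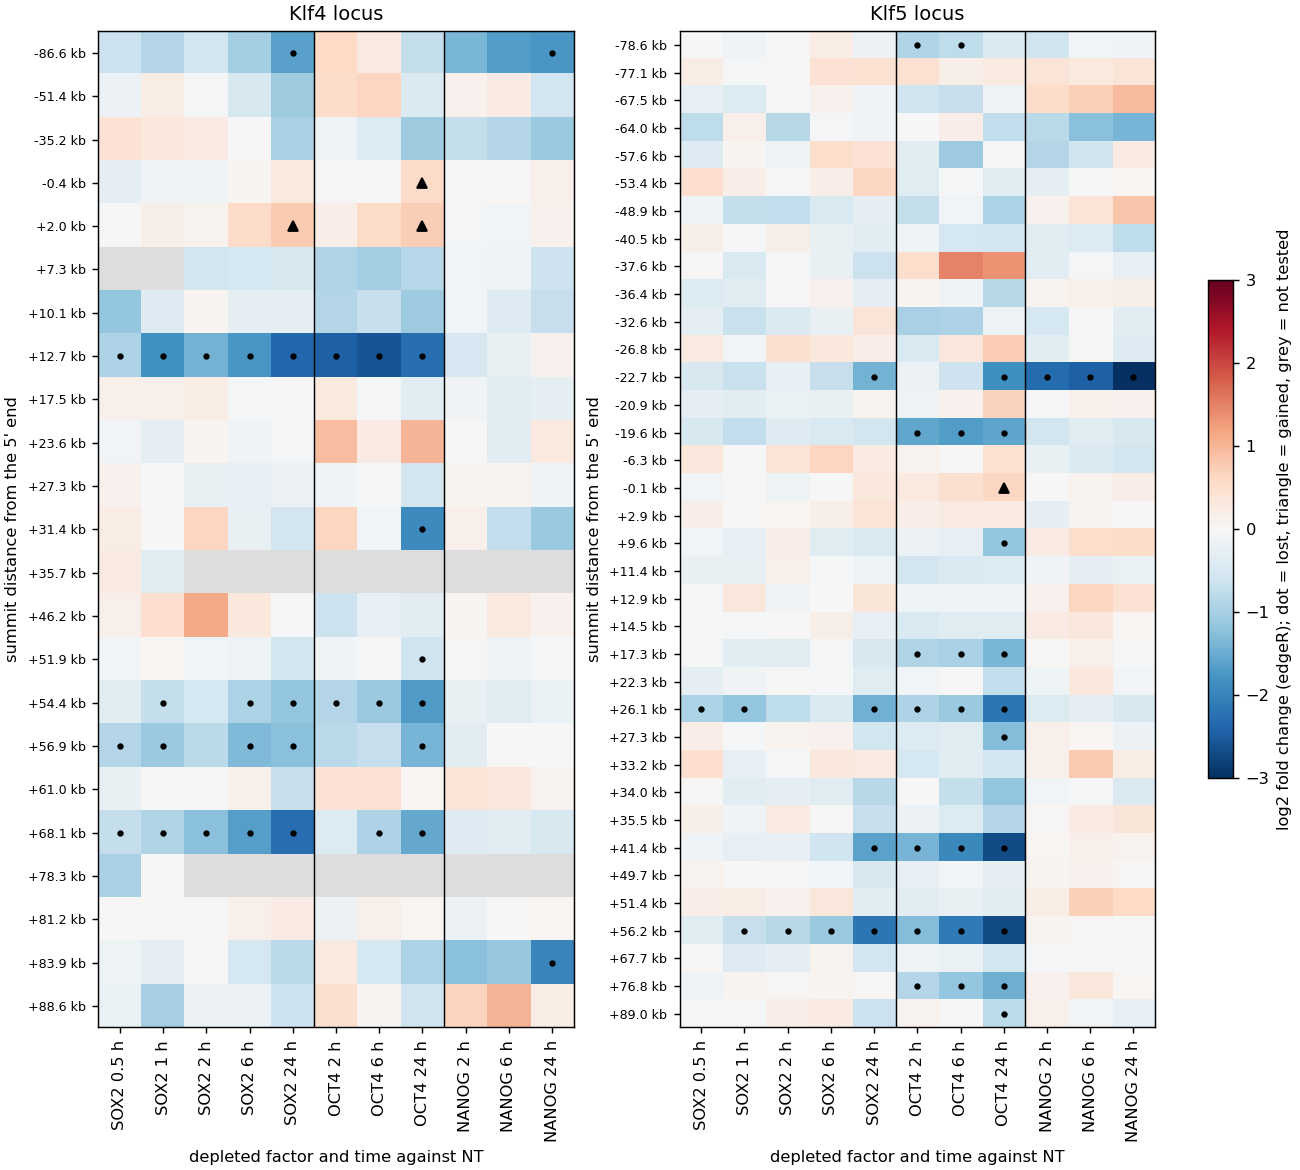
Log2 fold change against NT (colour) of each member (rows, from upstream to downstream) for each depleted factor and time (columns), with dots for losses, triangles for gains and grey for members not tested. Blue rows with dots run across all SOX2 and OCT4 columns at Klf4 +12.7 kb, and across the NANOG columns only at Klf5 -22.7 kb. Klf4 +68.1 kb lacks a dot only at 2 h of OCT4 depletion among these SOX2 and OCT4 columns, and Klf5 +56.2 kb only at 0.5 h of SOX2 depletion.

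Klf4 +12.7 kb, an intergenic peak with the octamer near its summit, was lower at the first time sampled after loss of SOX2 and after loss of OCT4. In SOX2-FKBP cells it had 7.21 and 6.64 CPM in NT, 3.71 and 3.95 at 0.5 h, 2.28 and 1.73 at 1 h, 2.02 and 3.08 at 2 h, 1.86 and 2.23 at 6 h and 0.824 and 1.86 at 24 h. Every treated library was below both NT libraries. The log2 fold change was -0.92 at 0.5 h (SE 0.26, edgeR adjusted p = 0.0394), -1.82 at 1 h (SE 0.30, edgeR adjusted p = 4.48e-05) and -2.35 at 24 h (SE 0.37, edgeR adjusted p = 6.37e-06). In OCT4-FKBP cells NT had 4.07 and 3.74 CPM, and the treated libraries had 0.588 and 0.796 at 2 h, 0.915 and 0.375 at 6 h and 1.08 and 0.493 at 24 h. The groups did not overlap, and 17.7% of the NT mean was left at 2 h (log2 fold change -2.44, SE 0.40, edgeR adjusted p = 4.14e-05). After NANOG depletion the level was 3.54, 6.41 and 4.45 CPM at 24 h against 3.55 and 4.37 in NT, and no time was called. The fall was larger after SOX2 than after NANOG depletion at 24 h (difference of log2 fold changes -2.49, adjusted p = 0.000748 by edgeR) and larger after OCT4 than after NANOG depletion at 2, 6 and 24 h (-1.94, -2.37 and -2.41). The SOX2 call at 0.5 h was kept in 8 of 12 fits with 1 library left out, with log2 values of -0.98 to -0.86, and was lost without SOX2-FKBP NT replicate 1 (-0.86), SOX2-FKBP NT replicate 2 (-0.98), SOX2-FKBP 0.5 h replicate 1 (-0.86) and SOX2-FKBP 0.5 h replicate 2 (-0.97). The SOX2 call at 2 h was kept in 25 of 27 fits with 1 library left out, with log2 values of -1.78 to -1.17, and was lost without SOX2-FKBP NT replicate 1 (-1.36) and SOX2-FKBP 2 h replicate 1 (-1.17).

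The cluster 40 to 75 kb downstream of Klf4 holds 6 members, and 3 of them, Klf4 +54.4 kb, Klf4 +56.9 kb and Klf4 +68.1 kb, lost accessibility after both depletions. Summed over the 6, the level fell in SOX2-FKBP cells from 112 ± 1.09 CPM (SD, n = 2) in NT to 84.0 ± 0.178 at 0.5 h and 46.0 ± 5.01 at 24 h, which left 40.9% of NT. In OCT4-FKBP cells it fell from 145 ± 12.8 CPM to 105 ± 3.15 at 2 h and 64.4 ± 12.3 at 24 h (44.3% of NT). In NANOG-FKBP cells it was 138 ± 22 CPM in NT and 122 ± 15.9 (n = 3) at 24 h, where the NT libraries ran from 122 to 153 CPM and the 24 h libraries from 106 to 137 CPM. These ranges overlapped.

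Klf4 +68.1 kb has its summit in an intron of the lincRNA gene Gm12510 and also spans the 5′ end of that gene. The peak had a lower mean at each later time of SOX2 depletion, though its 0.5 and 1 h libraries overlapped. It had 36 and 37.7 CPM in NT, 22 and 24.7 at 0.5 h, 18 and 23.5 at 1 h, 15.1 and 15.6 at 2 h, 12 and 11.3 at 6 h and 8.24 and 6.84 at 24 h. All treated libraries lay below NT, and the log2 fold change went from -0.72 (SE 0.16, edgeR adjusted p = 0.00461) to -2.28 (SE 0.23, edgeR adjusted p = 6.05e-10). The difference of 24 from 2 h was -1.02 on the log2 scale (adjusted p = 0.00764 by edgeR), and this difference was kept in 24 of 27 fits with 1 library left out, with log2 values of -1.16 to -0.90, and was lost without SOX2-FKBP 2 h replicate 2 (-1.0), SOX2-FKBP 24 h replicate 1 (-1.16) and SOX2-FKBP 24 h replicate 2 (-0.90). After OCT4 depletion the levels were 40.1 and 41.7 CPM in NT, 31.7 and 30.0 at 2 h, 23.1 and 19.6 at 6 h and 13.1 and 15.3 at 24 h. The 2 h libraries were below NT without a call (log2 fold change -0.41, SE 0.20, edgeR adjusted p = 0.300), and 6 and 24 h were called (-0.94 and -1.52). The difference between SOX2 and OCT4 depletion at 2 h was -0.85 (SE 0.29, edgeR adjusted p = 0.172), and with the replicate block it was -0.85 (edgeR adjusted p = 0.0103). NANOG-FKBP libraries had 51.6 and 34.2 CPM in NT and 33.6, 30.7 and 27.6 at 24 h, which was not called (-0.49, SE 0.19, edgeR adjusted p = 0.240). The call at 0.5 h was kept in 10 of 12 fits with 1 library left out, with log2 values of -0.81 to -0.62, and was lost without SOX2-FKBP NT replicate 2 (-0.69) and SOX2-FKBP 0.5 h replicate 1 (-0.62).

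Klf4 +54.4 kb, the highest member of the locus per kb, was not called at 0.5 h of SOX2 depletion and was called at 2 h of OCT4 depletion. It had 32.2 and 33.3 CPM in NT, 26.1 and 28 at 0.5 h, 24.2 and 16.8 at 1 h, 27.4 and 18 at 2 h, 19.2 and 15 at 6 h and 15.4 and 13.2 at 24 h. The treated libraries were below NT at each time, but the 2 h replicates stood apart and 2 h was not called (-0.53, SE 0.23, edgeR adjusted p = 0.231). In a fit of SOX2-FKBP libraries alone the 2 h loss was called, at -0.60 (edgeR adjusted p = 0.0226), and with the replicate block too, at -0.54 (edgeR adjusted p = 0.0215). The calls were at 1, 6 and 24 h (-0.72, -0.94 and -1.19). In OCT4-FKBP cells it went from 47.9 and 48.2 CPM to 25.6 and 26.3 at 2 h, 24.7 and 19.9 at 6 h and 13 and 16.4 at 24 h. Each of these times was called, with log2 fold changes of -0.89, -1.11 and -1.71. The 1 h call was kept in 9 of 12 fits with 1 library left out, with log2 values of -1.02 to -0.52, and was lost without SOX2-FKBP NT replicate 1 (-0.76), SOX2-FKBP NT replicate 2 (-0.71) and SOX2-FKBP 1 h replicate 2 (-0.52). The OCT4 call at 2 h was kept in 24 of 27 fits with 1 library left out, with log2 values of -0.89 to -0.87, and was lost without OCT4-FKBP NT replicate 2 (-0.88), OCT4-FKBP 2 h replicate 1 (-0.87) and OCT4-FKBP 2 h replicate 2 (-0.89).

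Klf4 +56.9 kb lies next to it. In SOX2-FKBP cells it had 19 and 18 CPM in NT, 9.79 and 11.5 at 0.5 h, 9.45 and 8.5 at 1 h, 13.1 and 8.19 at 2 h, 8.83 and 6.04 at 6 h and 9.26 and 6.26 at 24 h. It was lost at 0.5 h (-0.87, SE 0.21, edgeR adjusted p = 0.00996) and at 1, 6 and 24 h (-1.11, -1.33 and -1.26), and the 2 h value missed the threshold (-0.80, SE 0.30, edgeR adjusted p = 0.131). In a fit of SOX2-FKBP libraries alone the 2 h loss was called, at -0.87 (edgeR adjusted p = 0.00257), and with the replicate block too, at -0.81 (edgeR adjusted p = 0.00106). The OCT4-FKBP replicates differed from each other already in NT, at 14.1 and 23.4 CPM, and had 8.43 and 12.9 at 2 h, 9.08 and 14.4 at 6 h and 4.02 and 10.5 at 24 h. Only 24 h was called (-1.38, SE 0.32, edgeR adjusted p = 0.00120). With the replicate block 2 and 6 h were called too, at -0.81 (edgeR adjusted p = 0.000373) and -0.67 (edgeR adjusted p = 0.00177). That SOX2 call at 0.5 h was kept in 9 of 12 fits with 1 library left out, with log2 values of -0.98 to -0.73, and was lost without SOX2-FKBP NT replicate 1 (-0.83), SOX2-FKBP NT replicate 2 (-0.91) and SOX2-FKBP 0.5 h replicate 1 (-0.73). The 24 h OCT4 call was kept in 25 of 27 fits with 1 library left out, with log2 values of -2.23 to -0.85, and was lost without OCT4-FKBP NT replicate 2 (-0.99) and OCT4-FKBP 24 h replicate 1 (-0.85).

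The other 3 members of the cluster had fewer calls. Klf4 +51.9 kb had 26.5 and 31.8 CPM in NT and 18.4 and 20.4 at 24 h of OCT4 depletion, and that loss was its only call (-0.59, SE 0.22, edgeR adjusted p = 0.0472). That call was kept in 12 of 27 fits with 1 library left out, with log2 values of -0.74 to -0.48, and was lost without OCT4-FKBP NT replicate 2 (-0.48), OCT4-FKBP 24 h replicate 1 (-0.53) and OCT4-FKBP 24 h replicate 2 (-0.67) and without libraries of other groups. At 24 h of SOX2 depletion Klf4 +51.9 kb changed by -0.55 (SE 0.23, edgeR adjusted p = 0.0980), and it was called in the fit of SOX2-FKBP libraries alone, at -0.60 (edgeR adjusted p = 0.0107), with the replicate block and with at least 10 counts in every library. Klf4 +61.0 kb had 5.69 and 6.49 CPM in SOX2-FKBP NT cells and 3.81 and 3.62 at 24 h. That change missed the threshold (-0.70, SE 0.30, edgeR adjusted p = 0.116). In a fit of SOX2-FKBP libraries alone it was called, at -0.73 (edgeR adjusted p = 0.0280), and with the replicate block too, at -0.69 (edgeR adjusted p = 0.0412). Klf4 +46.2 kb had at most 1.94 CPM in any library and was never called.

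**Figure D3:**
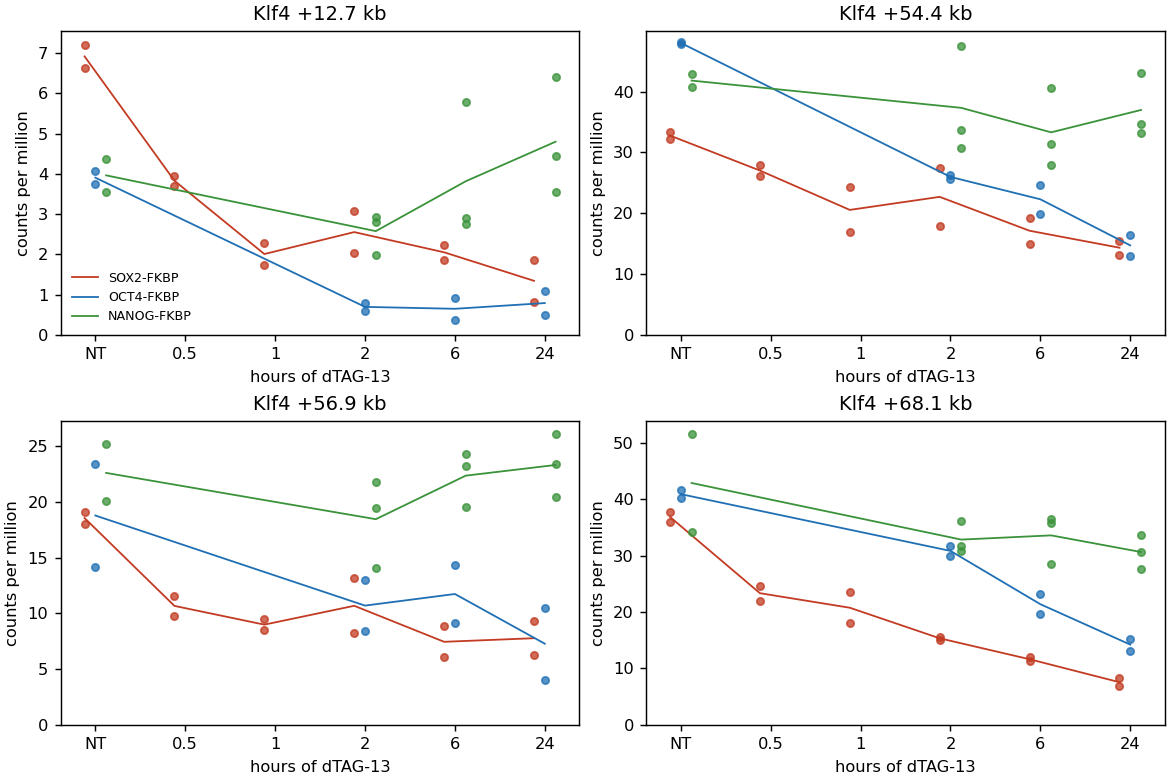
CPM of the 4 Klf4 members lost after both SOX2 and OCT4 depletion in every library (points) with group means (lines) in NT and over hours of dTAG-13, coloured by line. At Klf4 +68.1 kb the SOX2-FKBP points go down from 36 and 37.7 CPM to 8.24 and 6.84 CPM. The NANOG-FKBP points at 24 h lie between 27.6 and 33.6 CPM, all below their NT points and without a call.

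Elsewhere at Klf4, 3 further members were called lost, chosen here after their values were seen. Klf4 +31.4 kb had 4.32 and 4.76 CPM in OCT4-FKBP NT cells, 5.78 and 8.29 at 2 h and 1.24 and 1.15 at 24 h (-1.92, SE 0.41, edgeR adjusted p = 0.000469). The log2 difference of 24 from 2 h was -2.56, with the 24 h libraries lower. Klf4 -86.6 kb was lost at 24 h of SOX2 depletion (-1.63) and of NANOG depletion (-1.75), with NANOG-FKBP NT libraries at 7.96 and 2.86 CPM. Those NT libraries lie far apart, and the NANOG call was kept in 24 of 27 fits with 1 library left out, with log2 values of -2.27 to -0.80, and was lost without NANOG-FKBP NT replicate 1 (-0.80), NANOG-FKBP 24 h replicate 1 (-1.69) and NANOG-FKBP 24 h replicate 3 (-1.84). The SOX2 call was kept in 24 of 27 such fits, with log2 values of -1.76 to -1.46. It was lost without SOX2-FKBP NT replicate 1 (-1.46), SOX2-FKBP 24 h replicate 1 (-1.61) and SOX2-FKBP 24 h replicate 2 (-1.66). Klf4 +83.9 kb had 2.98 and 2.19 CPM in NANOG-FKBP NT cells and 1.23, 0 and 0 at 24 h. Its loss (-1.97, SE 0.57, edgeR adjusted p = 0.0482) was kept in 13 of 27 fits with 1 library left out, with log2 values of -7.63 to -1.36, and was lost without NANOG-FKBP NT replicate 1 (-1.72), NANOG-FKBP NT replicate 2 (-2.17), NANOG-FKBP 24 h replicate 2 (-1.81) and NANOG-FKBP 24 h replicate 3 (-1.36) and without libraries of other groups. Klf4 +17.5 kb, with 18.7 and 17.8 CPM in SOX2-FKBP NT cells, was not called at any time.

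At Klf5 the largest falls at 6 and 24 h of OCT4 depletion were downstream, at Klf5 +56.2 kb and Klf5 +41.4 kb, which both hold a composite, while at 2 h Klf5 -19.6 kb fell most. Klf5 +56.2 kb had 29.2 and 32 CPM in OCT4-FKBP NT cells, 12.7 and 12.1 at 2 h, 7.25 and 6.81 at 6 h and 4.33 and 5.26 at 24 h. All treated libraries were below NT, with log2 fold changes of -1.31 (SE 0.21, edgeR adjusted p = 2.23e-05), -2.12 and -2.67. In SOX2-FKBP cells it had 30.9 and 28.3 CPM in NT, 22.5 and 26 at 0.5 h, 18.7 and 20.0 at 1 h, 17.2 and 16.2 at 2 h, 14 and 13.5 at 6 h and 5.97 and 7.14 at 24 h. The loss was called from 1 h on (-0.68, SE 0.16, edgeR adjusted p = 0.00420) and reached -2.17 at 24 h (SE 0.23, edgeR adjusted p = 1.82e-09). NANOG-FKBP libraries had 27.9 and 18.8 CPM in NT and 25.7, 19.7 and 22.3 at 24 h, without a call. The fall differed from that in NANOG-FKBP cells after OCT4 depletion at 2, 6 and 24 h (-1.38, -2.16 and -2.65) and after SOX2 depletion at 6 and 24 h (-1.14 and -2.14). The first SOX2 call was kept in 10 of 12 fits with 1 library left out, with log2 values of -0.75 to -0.62, and was lost without SOX2-FKBP NT replicate 1 (-0.62) and SOX2-FKBP 1 h replicate 1 (-0.63). The 2 h SOX2 call was kept in 24 of 27 fits with 1 library left out, with log2 values of -0.91 to -0.76, and was lost without SOX2-FKBP NT replicate 1 (-0.76), SOX2-FKBP 2 h replicate 1 (-0.87) and SOX2-FKBP 2 h replicate 2 (-0.79).

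Klf5 +41.4 kb was called lost at 2, 6 and 24 h of OCT4 depletion and at 24 h of SOX2 depletion. OCT4-FKBP libraries had 28.2 and 41.3 CPM in NT, 9.02 and 17.1 at 2 h, 9.67 and 8.62 at 6 h and 4.02 and 6.9 at 24 h, so that no treated library reached NT. The log2 fold changes were -1.40 (SE 0.27, edgeR adjusted p = 0.000363), -1.93 and -2.67. SOX2-FKBP libraries had 37.7 and 35.1 CPM in NT, 31.9 and 39 at 0.5 h, 28.9 and 36.1 at 1 h, 29.4 and 32 at 2 h, 22.4 and 25.4 at 6 h and 10.3 and 13.4 at 24 h. The 6 and 24 h libraries were below both NT libraries, and 24 h was called (-1.62, SE 0.28, edgeR adjusted p = 2.80e-05), while 6 h missed the threshold (-0.61, SE 0.26, edgeR adjusted p = 0.191). In a fit of SOX2-FKBP libraries alone the 6 h loss was called, at -0.66 (edgeR adjusted p = 0.00378), and with the replicate block too, at -0.62 (edgeR adjusted p = 0.00553). The difference between the lines was 1.15 at 2 h (SE 0.37, edgeR adjusted p = 0.133) and 1.32 at 6 h (SE 0.38, edgeR adjusted p = 0.0436), where positive means less lost after SOX2 depletion. With the replicate block the 2 h difference was 1.16 (edgeR adjusted p = 0.000524). The 6 h call was kept in 11 of 27 fits with 1 library left out, with log2 values of 0.93 to 1.48, and was lost without SOX2-FKBP NT replicate 1 (1.37), SOX2-FKBP NT replicate 2 (1.27), SOX2-FKBP 6 h replicate 1 (1.41), SOX2-FKBP 6 h replicate 2 (1.22), OCT4-FKBP NT replicate 2 (0.93), OCT4-FKBP 6 h replicate 1 (1.33) and OCT4-FKBP 6 h replicate 2 (1.14) and without libraries of other groups. The OCT4 loss at 2 h was kept in 26 of 27 fits with 1 library left out, with log2 values of -1.93 to -1.03, and was lost without OCT4-FKBP 2 h replicate 1 (-1.03).

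Klf5 -19.6 kb, the third member with a composite, was called lost after OCT4 depletion and at no time of SOX2 or NANOG depletion. It had 8.47 and 9.58 CPM in NT, 2.65 and 3.45 at 2 h, 2.68 and 3 at 6 h and 3.56 and 2.46 at 24 h, and the groups did not overlap. The log2 fold change at 2 h was -1.55 (SE 0.27, edgeR adjusted p = 8.93e-05). In SOX2-FKBP cells it had 8.45 and 4.91 CPM in NT, 4.46 and 4.25 at 1 h and 5.87 and 4.67 at 2 h, and no time was called. The 1 h libraries were below both NT libraries (-0.73, SE 0.28, edgeR adjusted p = 0.128). That loss was called with the replicate block, at -0.74 (edgeR adjusted p = 0.0197), and without SOX2-FKBP NT replicate 2, at -1.02 (edgeR adjusted p = 0.0420). The difference between the lines missed the threshold at 2 h (1.17, SE 0.38, edgeR adjusted p = 0.142), and with the replicate block it was 1.19 (edgeR adjusted p = 0.0171).

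Klf5 +26.1 kb and Klf5 +76.8 kb, described here after their values were seen, had other time courses. Klf5 +26.1 kb had 14.9 and 15.4 CPM in SOX2-FKBP NT cells, 8.08 and 8.07 at 0.5 h, 8.15 and 5.82 at 1 h, 8.7 and 9.16 at 2 h, 10.4 and 11.6 at 6 h and 5.76 and 5.28 at 24 h. It was called at 0.5 h (-0.96, SE 0.19, edgeR adjusted p = 0.00154), 1 h and 24 h. The 2 h value missed the threshold (-0.76, SE 0.25, edgeR adjusted p = 0.0752) and was called in the fit of SOX2-FKBP libraries alone, at -0.82 (edgeR adjusted p = 0.00165), and 6 h was not called, where 72.6% of the NT mean was left. After OCT4 depletion it went from 20.4 and 31.7 CPM to 12.6 and 15 at 2 h and 4.64 and 7.06 at 24 h (-2.16, SE 0.27, edgeR adjusted p = 1.01e-07). Klf5 +76.8 kb was not called in SOX2-FKBP cells, with 6.05 and 6.49 CPM in NT and 5.66 and 7.04 at 24 h. In OCT4-FKBP cells it went from 6.4 and 8.56 CPM to 3.24 and 4.78 at 2 h, 2.81 and 3.94 at 6 h and 2.16 and 3.29 at 24 h, each below NT and each called. The difference between the lines at 24 h was 1.50 (SE 0.42, edgeR adjusted p = 0.0426). This difference was kept in 16 of 27 fits with 1 library left out, with log2 values of 1.18 to 1.82, and was lost without SOX2-FKBP NT replicate 1 (1.41), SOX2-FKBP NT replicate 2 (1.54), SOX2-FKBP 24 h replicate 1 (1.62), SOX2-FKBP 24 h replicate 2 (1.29), OCT4-FKBP NT replicate 2 (1.24), OCT4-FKBP 24 h replicate 1 (1.18) and OCT4-FKBP 24 h replicate 2 (1.82) and without libraries of other groups. The 2 h OCT4 loss of Klf5 +26.1 kb was kept in 25 of 27 fits with 1 library left out, with log2 values of -1.18 to -0.55, and was lost without OCT4-FKBP NT replicate 2 (-0.55) and OCT4-FKBP 2 h replicate 1 (-0.81). That of Klf5 +76.8 kb was kept in 25 of 27 fits with 1 library left out, with log2 values of -1.20 to -0.65, and was lost without OCT4-FKBP NT replicate 2 (-0.65) and OCT4-FKBP 2 h replicate 1 (-0.66). Further OCT4 losses were at Klf5 +17.3 kb (2, 6 and 24 h), Klf5 -78.6 kb (2 and 6 h) and Klf5 +9.6 kb, Klf5 +27.3 kb and Klf5 +89.0 kb (24 h), with log2 fold changes between -1.36 and -0.76. The 2 h loss of Klf5 +17.3 kb was lost when any of its 4 own libraries was left out, with log2 values of -0.96 to -0.82. The 2 h loss of Klf5 -78.6 kb was kept in 24 of 27 fits with 1 library left out, with log2 values of -1.17 to -0.63, and was lost without OCT4-FKBP NT replicate 1 (-1.0), OCT4-FKBP NT replicate 2 (-0.78) and OCT4-FKBP 2 h replicate 2 (-0.63). Its 6 h loss was kept in only 9 of 27 such fits, with log2 values of -0.99 to -0.52, and was lost when any of its own 4 libraries was left out.

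Klf5 -22.7 kb, also described after its values were seen, was lost at every time of NANOG depletion. NANOG-FKBP libraries had 17.8 and 15.1 CPM in NT, 3.6, 1.98 and 3.42 at 2 h, 3.07, 3.26 and 2.65 at 6 h and 1.73, 2.29 and 1.7 at 24 h. The highest treated library was far below the lowest NT library, and the log2 fold changes were -2.30 (SE 0.40, edgeR adjusted p = 0.000799), -2.45 and -3.19 (SE 0.42, edgeR adjusted p = 3.36e-06). Without the 3 shallow second replicates of treated NANOG-FKBP cells, a setting added after the data were seen, they were -2.20, -2.48 and -3.25, and all were called. SOX2-FKBP libraries had 8.54 and 8.08 CPM in NT, 5.87 and 8.1 at 2 h and 2.68 and 3.52 at 24 h, with a call at 24 h (-1.42, SE 0.42, edgeR adjusted p = 0.0152). In the fit of SOX2-FKBP libraries alone 6 h was called too, at -0.74 (edgeR adjusted p = 0.0158), and with the replicate block 1 and 6 h were. OCT4-FKBP replicates differed already in NT, with 8.06 and 20.7 CPM, and had 1.55 and 6.74 at 24 h (-1.83, SE 0.41, edgeR adjusted p = 0.000819). At 2 h the NANOG loss was larger than the change after SOX2 depletion by 2.05 (adjusted p = 0.0401) and than that after OCT4 depletion by 2.12 (adjusted p = 0.0162), both on the log2 scale by edgeR. Without the shallow libraries the first difference was 1.93 (edgeR adjusted p = 0.094), and the OCT4 difference at 6 h, otherwise called at 1.84, was 1.86 (edgeR adjusted p = 0.0544). The OCT4 loss at 24 h was kept in 25 of 27 fits with 1 library left out, with log2 values of -3.23 to -1.0, and was lost without OCT4-FKBP NT replicate 2 (-1.0) and OCT4-FKBP 24 h replicate 1 (-1.12). The SOX2 loss at 24 h was kept in 24 of 27 fits with 1 library left out, with log2 values of -1.64 to -1.24, and was lost without SOX2-FKBP NT replicate 1 (-1.38), SOX2-FKBP NT replicate 2 (-1.46) and SOX2-FKBP 24 h replicate 1 (-1.24).

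**Figure D4:**
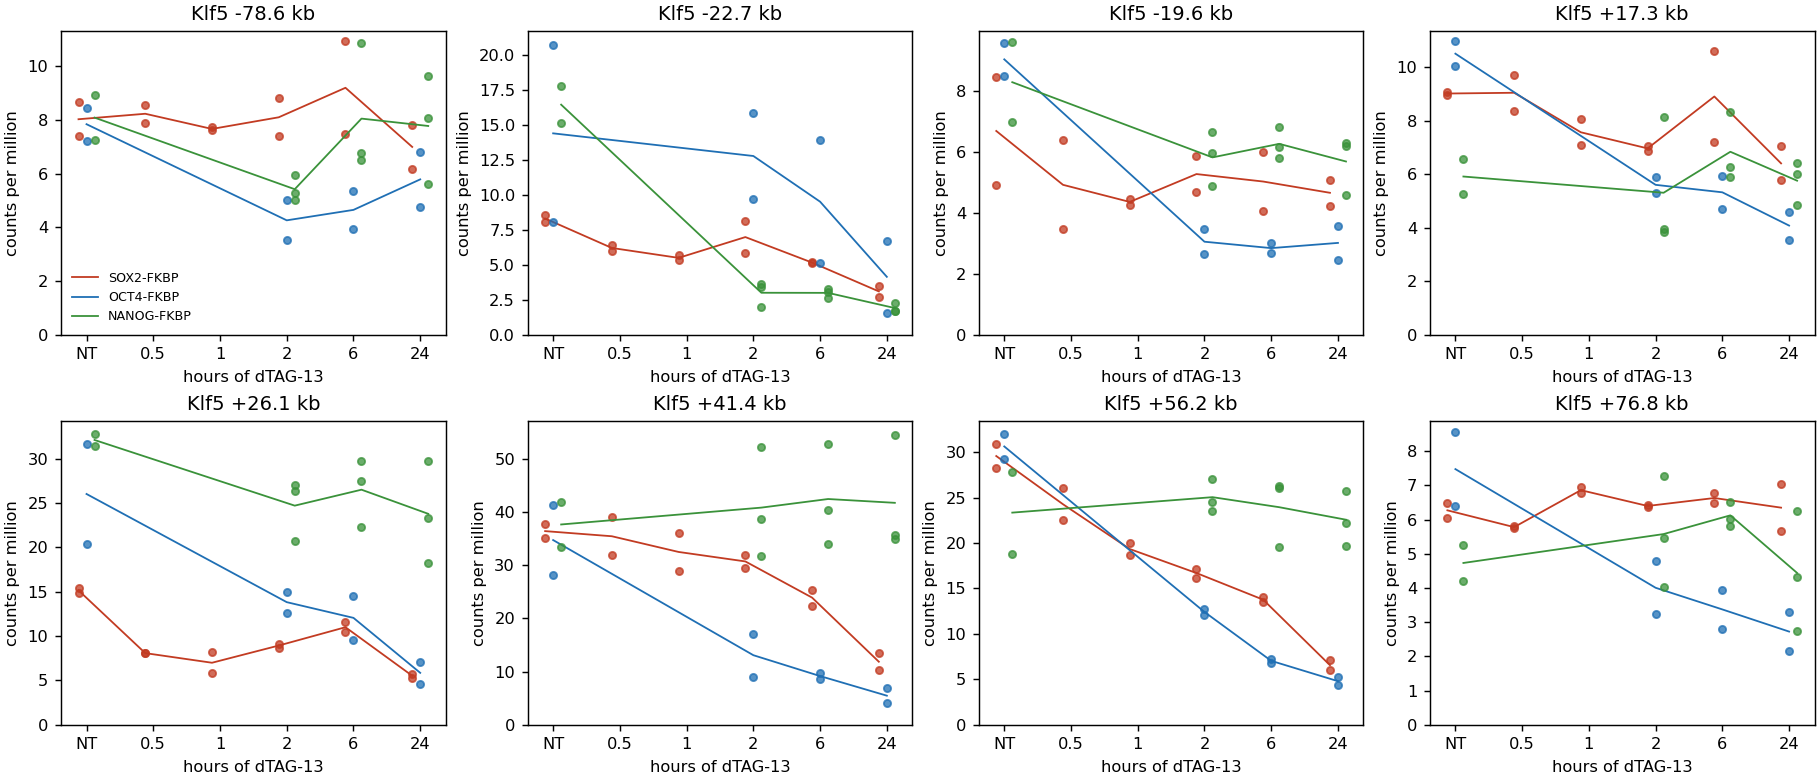
CPM of the 8 Klf5 members lost at 2 h of any depletion in every library (points) with group means (lines) in NT and over hours of dTAG-13, coloured by line. At Klf5 -22.7 kb the NANOG-FKBP points drop from 17.8 and 15.1 CPM to 1.98 to 3.60 CPM at 2 h, and at Klf5 +76.8 kb the OCT4-FKBP points go from 6.4 and 8.56 CPM to 2.16 and 3.29 CPM.

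No loss was called at either promoter, and the 3 gains after OCT4 depletion described here missed the threshold in a fit of OCT4-FKBP libraries alone. Klf4 -0.4 kb had 30.2 and 32 CPM in SOX2-FKBP NT cells, 30.3 and 26.8 at 2 h and 36.4 and 39.4 at 24 h, and it was not called at any SOX2 time. In OCT4-FKBP cells it had 30.2 and 30.8 CPM in NT, 31.9 and 28.1 at 2 h and 49.3 and 40.9 at 24 h, which was called gained (0.57, SE 0.21, edgeR adjusted p = 0.0408). That gain was kept in 16 of 27 fits with 1 library left out, with log2 values of 0.42 to 0.69, and was lost without OCT4-FKBP NT replicate 1 (0.52), OCT4-FKBP NT replicate 2 (0.55) and OCT4-FKBP 24 h replicate 1 (0.42) and without libraries of other groups. Klf5 -0.1 kb had 35.9 and 33.6 CPM in OCT4-FKBP NT cells and 61.8 and 44.5 at 24 h. Both treated libraries were above NT (0.62, SE 0.21, edgeR adjusted p = 0.0280). The Klf5 promoter gain was kept in 24 of 27 fits with 1 library left out, with log2 values of 0.35 to 0.83, and was lost without OCT4-FKBP NT replicate 1 (0.64), OCT4-FKBP NT replicate 2 (0.54) and OCT4-FKBP 24 h replicate 1 (0.35). Its level in SOX2-FKBP cells was 31.7 and 30.2 CPM in NT and 38.5 and 38.1 at 24 h, without a call. Klf4 +2.0 kb, in a coding exon of Klf4, rose in both lines. It had 15.8 and 11 CPM in SOX2-FKBP NT cells and 20.7 and 26.3 at 24 h (0.80, SE 0.25, edgeR adjusted p = 0.0236), and 26.2 and 21 CPM in OCT4-FKBP NT cells against 42.8 and 35.2 at 24 h (0.73, SE 0.24, edgeR adjusted p = 0.0226). The SOX2 gain was kept in 25 of 27 fits with 1 library left out, with log2 values of 0.57 to 1.09, and was lost without SOX2-FKBP NT replicate 2 (0.57) and SOX2-FKBP 24 h replicate 2 (0.60). The OCT4 gain was kept in 25 of 27 fits with 1 library left out, with log2 values of 0.55 to 0.86, and was lost without OCT4-FKBP NT replicate 2 (0.55) and OCT4-FKBP 24 h replicate 1 (0.57).

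**Figure D5:**
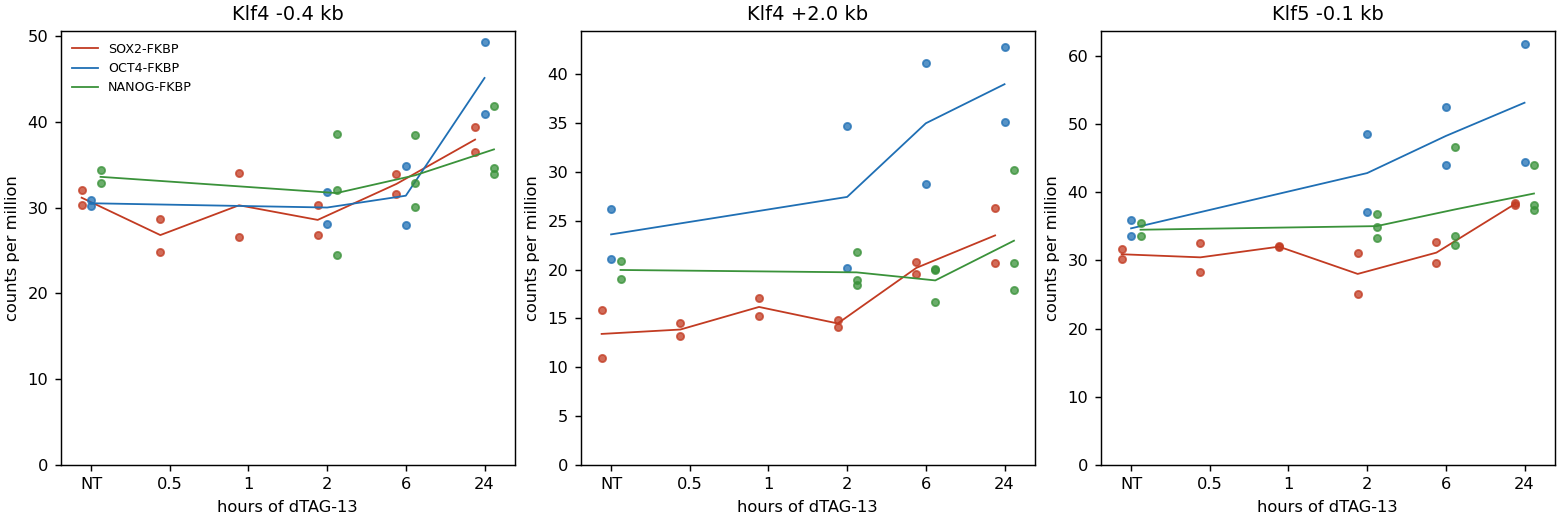
CPM of the promoter peaks of Klf4 and Klf5 and of the peak in a Klf4 coding exon in every library (points) with group means (lines), coloured by line. At 24 h the OCT4-FKBP points lie above their NT points in all 3 panels, at 49.3 and 40.9 CPM for the Klf4 promoter against 30.2 and 30.8 CPM in NT.

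Promoters elsewhere in the genome were read in the same fit, for lists of genes chosen by function. Of 20 other KLF and SP genes, which bind related GC-rich sites, 17 had a promoter peak that was tested. At 24 h of OCT4 depletion 7 were higher and 1 was lower, against 10.8% and 12.7% of all peaks, with a median log2 fold change of 0.54. The higher ones were Klf6 (0.78), Klf7 (0.75), Klf10 (0.69), Klf11 (1.05), Klf14 (0.84), Sp3 (0.80) and Sp5 (0.82), and the lower one was Klf17 (-1.22). At 24 h of SOX2 depletion Klf11 was higher (0.63), and none was called after NANOG depletion or at 2 or 6 h. All peaks include sites away from promoters, and the share over promoters alone was not counted. These counts are therefore not read as a trait of KLF and SP genes. Calls at the promoters of these lists were not refitted with libraries left out or by line. Of 12 genes of the naive network 9 were tested, and the Nanog promoter was lost at 24 h of SOX2 depletion (-0.71) and at 6 and 24 h of OCT4 depletion (-0.64 and -1.21). Prdm14, a regulator of germ cell fate, was lost at 24 h of SOX2 depletion (-0.66) and Tfcp2l1, a target of LIF, was gained at 24 h of OCT4 depletion (0.88). Those 2 calls at the Nanog and Tfcp2l1 promoters were also the calls among 6 stem cell markers tested at 24 h of OCT4 depletion, and of 6 markers of other cell types tested only Gata6 was called, higher (0.69). Over the 31 libraries, the promoters whose log2 level relative to NT moved most like that of Klf4 were those of Lsg1 (Pearson r = 0.92), Cdon (0.91) and Tex10 (0.91), and Pdlim5 (0.92) and Cip2a (0.92) were among the 3 most like that of Klf5, of 11655 promoters. The libraries share lines and depth, so these are descriptions.

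The change between 2 and 24 h was tested within each line. After SOX2 depletion 5 members were lower at 24 than at 2 h (background 2.17%, 1 to 6 with 1 library left out, 1 without 2 h replicate 2 or 24 h replicate 1) and 0 higher (0.773%, 3 at an unadjusted p below 0.05 by edgeR). After OCT4 depletion 9 were lower (8.25%, 4 without 2 h replicate 2 or 24 h replicate 1) and 1, the Klf4 promoter, was higher (6.08%), and with the replicate block the counts were 15 and 3. After NANOG depletion none changed (0.0811% lower and 0.0216% higher), with 2 lower and 1 higher at an unadjusted p below 0.05. Between SOX2 and OCT4 depletion no member differed at 2 h (backgrounds 1.20% lower and 0.374% higher, 1 lower and 5 higher at an unadjusted p below 0.05). The calls were Klf5 +41.4 kb at 6 h (1.88% and 0.847%) and Klf5 +76.8 kb at 24 h (1.67% and 1.10%), and with the replicate block 1 was lower and 2 higher at 2 h, 2 lower and 6 higher at 6 h, and 2 higher at 24 h. For SOX2 against NANOG, 1, 2 and 5 members differed at 2, 6 and 24 h. The backgrounds were 1.48%, 2.99% and 5.59% lower and 0.273%, 0.283% and 1.19% higher. For OCT4 against NANOG, 4, 6 and 10 differed, with backgrounds of 1.61%, 3.61% and 6.00% lower and 0.907%, 1.34% and 2.89% higher. The NANOG differences were added after the data were seen. The backgrounds in this paragraph belong to the main fit and not to the replicate block.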

How the data were processed

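ATACseq was measured in the 31 libraries that have a column in the deposited count table; 14 of the 45 samples of the series were not analysed here. Per the labels and methods, the authors aligned reads to mm10 with BWA 0.7.17-r1188, filtered them with SAMtools 1.10 and Picard 2.12.0, used MACS2 on the merged libraries to define peaks and counted fragments over them, so the deposited values are raw counts per peak. Peaks exceeding 10 counts in over 6 of 27 libraries (2 of 12 for 0.5 and 1 h) were tested here with edgeR 4.0.16 (R 4.3.3; TMM, quasi-likelihood, Benjamini-Hochberg), on 166430 and 160432 peaks; the SE is derived from the fold change and its test. The edgeR fits were tested on simulated data. DESeq2 1.42.0, other scalings and filters, fits of 1 line, left-out libraries and a replicate block were alternatives. Same-numbered OCT4-FKBP libraries deviated together (6 pairs of groups, correlation 0.16 to 0.39), which came from the data and not the labels. Genes came from GENCODE M21. Named were promoter peaks, Klf4 members 40 to 75 kb downstream, members lost at 2 h with a log2 fold change of -1 or below, gains at 24 h, the highest NT levels and 2 h differences between lines; others were chosen after their values were seen. Likeness used promoters of at least 2 CPM, and 1 of these genes is not reported here. The members and lists were chosen with earlier results of these data known. Depth limits low peaks most.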

Additional observations from a re-analysis of the deposited data

Results flagged for a closer look

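Differences between lines or times that passed edgeR's test (adjusted p below 0.05) are listed here as log2 values. Between SOX2 and OCT4 depletion, Klf5 +41.4 kb differed by 1.32 at 6 h and Klf5 +76.8 kb by 1.50 at 24 h, both less reduced after SOX2 depletion.

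From 2 to 24 h of SOX2 depletion, Klf4 -35.2 kb changed by -1.22, Klf4 +68.1 kb by -1.02, Klf5 +41.4 kb by -1.37, Klf5 +56.2 kb by -1.34 and Klf5 +89.0 kb by -0.84. Klf4 -35.2 kb and Klf5 +89.0 kb were not called against NT in this line, but both were at 24 h in a fit of SOX2-FKBP libraries alone. With 1 library left out, Klf4 -35.2 kb was kept in 12 of 27 fits (-1.55 to -0.95) and Klf5 +89.0 kb in 11 (-1.01 to -0.68), and each was lost when any 2 or 24 h library of the line was left out. Klf4 +68.1 kb was lost without 2 h replicate 2 (-1.0) or 24 h replicate 1 (-1.16) or 2 (-0.90), and Klf5 +41.4 kb without 2 h replicate 2 (-1.31) or 24 h replicate 1 (-1.19), while Klf5 +56.2 kb was kept in 27. From 2 to 24 h of OCT4 depletion, Klf4 -0.4 kb changed by 0.59, Klf4 +31.4 kb by -2.56, Klf4 +54.4 kb by -0.82, Klf4 +68.1 kb by -1.11, Klf5 -22.7 kb by -1.65, Klf5 +9.6 kb by -0.998, Klf5 +26.1 kb by -1.25, Klf5 +41.4 kb by -1.28, Klf5 +56.2 kb by -1.37 and Klf5 +89.0 kb by -0.89. Without 2 h replicate 2 or 24 h replicate 1, Klf5 -22.7 kb (-1.28 and -0.95) and Klf5 +41.4 kb (-0.77 and -0.95) missed the threshold, and their values ran from -3.05 to -0.95 and from -1.71 to -0.77. Klf4 -0.4 kb was kept in 11 of 27 fits with 1 library left out (0.43 to 0.72), Klf4 +54.4 kb, Klf5 +9.6 kb and Klf5 +89.0 kb in 24 and Klf5 +26.1 kb in 26, where it was lost without 24 h replicate 1 (-0.988).

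SOX2 depletion differed from NANOG depletion at Klf5 -22.7 kb at 2 h (2.05), at Klf4 +68.1 kb (-1.31) and Klf5 +56.2 kb (-1.14) at 6 h, and at 24 h at Klf4 +12.7 kb (-2.49), Klf4 +54.4 kb (-0.99), Klf4 +68.1 kb (-1.80), Klf5 +41.4 kb (-1.73) and Klf5 +56.2 kb (-2.14). OCT4 depletion differed from NANOG depletion at 2 h at Klf4 +12.7 kb (-1.94), Klf5 -22.7 kb (2.12), Klf5 +41.4 kb (-1.46) and Klf5 +56.2 kb (-1.38). At 6 h it differed at Klf4 +12.7 kb (-2.37), Klf5 -22.7 kb (1.84), Klf5 -19.6 kb (-1.30), Klf5 +41.4 kb (-2.09), Klf5 +56.2 kb (-2.16) and Klf5 +76.8 kb (-1.50). At 24 h it differed at Klf4 +12.7 kb (-2.41), Klf4 +54.4 kb (-1.51), Klf4 +56.9 kb (-1.41), Klf4 +68.1 kb (-1.04), Klf5 +9.6 kb (-1.73), Klf5 +17.3 kb (-1.30), Klf5 +26.1 kb (-1.67), Klf5 +41.4 kb (-2.79), Klf5 +56.2 kb (-2.65) and Klf5 +76.8 kb (-1.52). Without the 3 treated NANOG-FKBP second replicates, the SOX2 differences at Klf5 -22.7 kb at 2 h (1.93) and Klf4 +54.4 kb at 24 h (-0.91) and the OCT4 difference at Klf5 -22.7 kb at 6 h (1.86) missed the threshold. OCT4-FKBP and NANOG-FKBP cells come from different parental lines, so factor and parental cells cannot be told apart in these values. Why these values differ was not tested.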

How the results depend on the processing

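No called member changed sign under any alternative. The shares of all peaks called under the alternatives are not given, so the counts below stand without a background. Of the called values, DESeq2 lost 19, DESeq2 size factors 6, total counts 11, no filter 4, a filter of 10 counts in every library 1 and fits of 1 line 16, and the replicate block lost none. By DESeq2, SOX2 0.5 h had 2 losses, NANOG 24 h had 1 and the SOX2 minus OCT4 difference at 24 h had 0 higher. DESeq2 size factors also gave 0 higher there. Total counts gave 1 NANOG loss at 24 h, 0 higher for SOX2 minus OCT4 at 24 h and 0 higher from 2 to 24 h of OCT4 depletion. With at least 10 counts in every library only 14 members were tested, with OCT4 losses of 4, 5 and 10 at 2, 6 and 24 h, NANOG losses of 0, 0 and 0, and SOX2 minus OCT4 higher in 2 at 6 h and 0 at 24 h. Fits of 1 line gave SOX2 losses of 6, 8 and 16, 0 OCT4 gains and 1 NANOG loss at 24 h, and from 2 to 24 h 11 lower and 3 higher for SOX2 and 5 lower and 0 higher for OCT4. The OCT4 losses of the fit of OCT4-FKBP libraries alone are not given here, so whether they hold in it is not shown.

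With the replicate block, SOX2 losses were 6, 8 and 16, SOX2 gains at 6 h 1, OCT4 gains 1 at 2 h and 3 at 6 h, NANOG losses 2 at 2 h and 2 at 6 h, and NANOG gains at 24 h 1. SOX2 minus OCT4 was lower in 1 and higher in 2 at 2 h, lower in 2 and higher in 6 at 6 h, and higher in 2 at 24 h. From 2 to 24 h, SOX2 had 11 lower and 2 higher and OCT4 had 15 lower and 3 higher. Deviations of same-numbered libraries correlated at 0.09 to 0.25 in SOX2-FKBP (15 pairs of groups) and -0.04 to 0.35 in NANOG-FKBP (6). These ranges overlap the 0.16 to 0.39 of OCT4-FKBP, and no threshold is given here, so they do not settle which lines were paired. SOX2-FKBP and NANOG-FKBP were not taken as paired, and the main calls used no block in any line. Without the 3 treated NANOG-FKBP second replicates, an alternative chosen after seeing the data, SOX2 minus OCT4 at 6 h was higher in 2.

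Leaving out each library in turn, where a lone library of a group is assumed to vary like the others, losses ranged from 0 to 4 at 0.5 h, 4 to 6 at 1 h, 1 to 5 at 2 h, 3 to 5 at 6 h and 7 to 12 at 24 h for SOX2. They ranged from 4 to 9, 7 to 11 and 12 to 18 for OCT4 and stayed at 1, 1 to 2 and 1 to 3 for NANOG at 2, 6 and 24 h. Gains ranged from 0 to 1 for SOX2 at 24 h, 0 to 1 for OCT4 at 6 h and 0 to 3 at 24 h. SOX2 minus OCT4 was higher in 0 to 1, 0 to 2 and 0 to 1 at 2, 6 and 24 h, and from 2 to 24 h 1 to 6 were lower for SOX2, 4 to 10 lower and 0 to 1 higher for OCT4. A window of 50 kb held 12 and 25 members. The causes were not tested, beyond the smaller number of members or libraries that a setting leaves.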
